A study of Mus musculus with 48 samples.

Results

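The middle part of sTAD5, the Jκ-proximal sub-TAD of the mouse Igκ locus, is described here through the HTGTS-JoinT-seq junctions whose prey end mapped to chromosome 6 between 70150001 and 70550000 (mm9), leaving out 70336465 to 70336865, which holds the Igkv8-16 break. HTGTS-JoinT-seq amplifies outward from a bait break and reads the sequence that became joined to it, the prey. The position rule gave 986198 junctions, of 7265223 in the Vκ window of chromosome 6 from 67500000 to 70660000 and of 8250887 junctions in all 48 libraries. Those junctions piled up at 25 of the 138 break sites of the window. A break site is a position where the signal end junctions of the 9 STI-571-treated WT libraries of the SE bait peaked next to a CAC. All shares of a site or region given below are percentages of the Vκ window junctions of the same library.

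The cells were Abelson kinase transformed pro-B (vAbl) lines, a WT line (clone B in the methods) and a Ku70-/- line (the Ku70-deficient line that the methods name is clone B1), so that a difference between genotypes and any other difference between the lines cannot be told apart. Each line was cycling without the Abl kinase inhibitor, or G0-G1–arrested with 3 µM STI-571 for 96 h together with DMSO, with 5 µM L67 or with 25 µM L82-G17. L67 inhibits DNA ligases I and III, and L82-G17 inhibits DNA ligase I. Every condition was read from the Jκ1 coding end (CE bait) and from the Jκ1 signal end (SE bait), which made 16 groups of 3 libraries. The study describes its experiments as biologically repeated, but the labels tie no library to a culture, so p-values cover the spread between these libraries only. Doses of the inhibitors differ, so each was set against DMSO and not against the other.

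In V(D)J recombination the RAG nuclease cuts a V and a J segment next to their recombination signal sequences (RSS), each made of a heptamer, a spacer and a nonamer. The cut leaves a hairpin-sealed coding end on the segment and a blunt signal end on the RSS. Classical NHEJ, in which Ku70 and Ku80 hold the broken ends and ligase IV seals them, joins coding ends to coding ends after opening and light trimming, and signal ends to signal ends without loss. A Vκ that lies in the same direction as Jκ is joined by deletion (DEL) of the interval, and one that lies the other way by inversion (INV). Without Ku, alternative end-joining (A-EJ) uses ends that were resected, joined directly or at a microhomology (MH), a few bases that both ends share, and a ligase other than ligase IV can seal them. The study describes the A-EJ joints of G0-G1 cells as mostly direct. A hybrid joint connects a coding end with a signal end.

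The sites that the results below turn on are shown together so that their RSS can be compared, those of the Igkv6 and Igkv8 type first and those of the Igkv3 type, with another spacer and nonamer, last. Each line reads in the direction of the Vκ gene, with 10 bases of the coding flank, the 7-base heptamer in capitals, the 12-base spacer, and the nonamer in capitals, and the break lies before the heptamer.
Igkv6-25, + strand, chr6:70165942-70165979: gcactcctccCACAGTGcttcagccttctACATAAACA
Igkv8-24, − strand, chr6:70166824-70166861: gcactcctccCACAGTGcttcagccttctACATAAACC
site 70190420, − strand, chr6:70190393-70190430: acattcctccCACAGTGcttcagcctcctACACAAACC
Igkv8-21, − strand, chr6:70264861-70264898: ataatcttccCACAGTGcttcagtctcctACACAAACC
Igkv8-19, − strand, chr6:70290842-70290879: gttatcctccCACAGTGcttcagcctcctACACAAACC
Igkv6-17, + strand, chr6:70321978-70322015: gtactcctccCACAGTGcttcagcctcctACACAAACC
Igkv6-15, − strand, chr6:70356435-70356472: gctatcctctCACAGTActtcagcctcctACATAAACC
site 70443357, − strand, chr6:70443330-70443367: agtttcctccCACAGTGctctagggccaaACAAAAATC
Igkv3-12, + strand, chr6:70468834-70468871: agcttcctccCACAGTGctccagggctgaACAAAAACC
Igkv3-10, + strand, chr6:70523215-70523252: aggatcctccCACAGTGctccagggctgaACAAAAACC
The heptamer was CACAGTG at 20 of the 25 sites, and at 111 of the 138 sites of the window. Igkv8-18 had CACAGAG and Igkv6-15 had CACAGTA. The other 3 heptamers, each at 1 site without an annotated gene, also began with CAC, which the placing of a site requires. The RSS of Igkv8-19, Igkv6-17 and site 70190420 were identical in 28 of 28 bases, as were those of Igkv3-12 and Igkv3-10, whereas Igkv6-25 and Igkv8-24 differed at 1 base (27 of 28 identical). Igkv6-25 and Igkv8-24 are neighbours whose RSS face each other, with breaks at 70165952 and 70166851, and their coding flanks were 92% and their signal flanks 96% identical over 100 bases. Of 25 sites, 13 were DEL and 12 INV. At 14 sites an annotated Igkv gene ends at the break, which are all 14 Igkv genes annotated in the interval, and 11 sites have no gene there in the GENCODE vM1 annotation of mm9. The break of an annotated gene thus lies directly 3′ of its last coding base.

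The libraries held 308 to 51172 region junctions, with 308 to 4286 in cycling libraries and 10149 to 51172 in STI-571-treated ones. Copies were kept by the authors, so these are read counts and not counts of cells, and distinct junctions, those that differ in where the prey or the bait ends, in strand or in the bases shared or inserted between them, numbered 26 to 2141 per library. Replicates are numbered here in the order in which the samples are listed, so equal numbers do not tie libraries together. Ku70-/- DMSO replicate 1 stood apart with each bait. It held 116 distinct region junctions with the CE bait and 121 with the SE bait, at 90.8 and 136 copies each, whereas the other 2 Ku70-/- DMSO libraries of a bait held 1573 to 1915 at 9.58 to 14.5 copies. Results that rest on it are given with and without it. The copies per site differed in all 48 replicate pairs by more than read counting alone would give (smallest chi-square per degree of freedom 6.21), a measure that is raised by copies, and no replicates were merged.

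The region took 14.5% ± 0.345 (SD, n = 3) of the window in WT DMSO libraries of the CE bait and 14.9% ± 0.540 with the SE bait. With the SE bait it was lower in cycling WT libraries, at 10.6, 9.63 and 8.18%, than in DMSO, at 14.3, 15.4 and 15.1%. The DEL sites alone took 5.07, 2.78 and 2.85% in these cycling libraries and 9.86, 10.5 and 9.84% in DMSO. The INV sites took 5.51, 6.85 and 5.33% in cycling and 4.47, 4.87 and 5.23% in DMSO, so the INV total did not rise. Single INV sites moved in opposite ways. Igkv8-21 fell from 3.22, 3.92 and 3.21% in cycling to 1.02, 1.21 and 1.27% in DMSO. Igkv8-24 rose from 0.931, 0.212 and 0.108% to 1.47, 1.49 and 1.36%, so a rise was not confined to DEL sites. With the CE bait the cycling libraries gave 16.1, 14.98 and 14.6% against 14.1, 14.8 and 14.7%, which overlap. Under both inhibitors the WT share was lower than in DMSO, at 12.8% ± 0.328 under L67 and 12.8% ± 0.261 under L82-G17 for the CE bait. For the SE bait it was 13.8% ± 0.446 and 13.96% ± 0.0389. None of these 4 inhibitor groups overlapped its DMSO group, and the exact permutation test gave p = 0.1, the smallest that 3 against 3 libraries allow (adjusted p = 0.2 over 14 comparisons). In Ku70-/- DMSO libraries the share was 10.96, 14.99 and 14.9% with the CE bait and 11.6, 14.8 and 15.1% with the SE bait, the low value each time from replicate 1. Under L67 it was 12.9, 12.3 and 12.9% with the CE bait and 12.6, 12.3 and 12.8% with the SE bait. Under L82-G17 it was 12.6, 11.7 and 12.6% and 12.8, 11.5 and 12.7%. All 12 Ku70-/- inhibitor libraries thus lay below DMSO replicates 2 and 3 of their bait, and the groups overlapped only in that replicate 1 was lower than most of them. Cycling Ku70-/- libraries gave 17.2, 17.5 and 16.3% with the CE bait, all above DMSO, and 6.51, 10.5 and 10.9% with the SE bait, all below it. With the CE bait 16.99 to 31.2% of these cycling junctions lay over 200 bp from every site, and DMSO minus cycling turned to 0.517 percentage points with only junctions within 200 bp of a site and to 0.0835 as a share of all junctions.

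**Figure D1:**
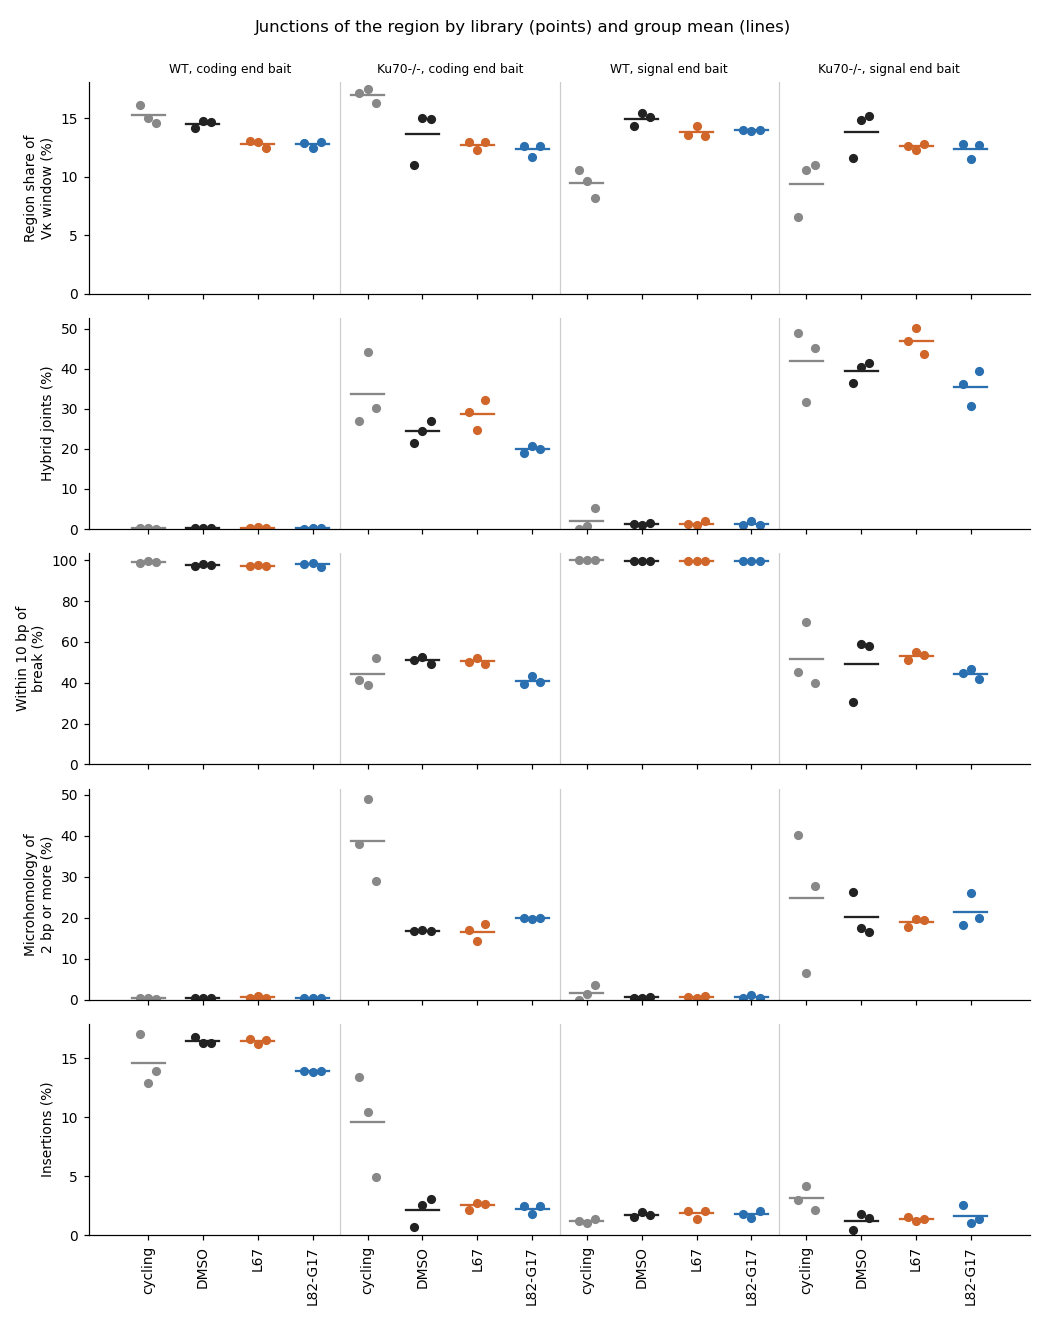
Region share of the Vκ window, hybrid share, share within 10 bp, microhomology share and insertion share, in percent, for every library (points) with group means (lines), by genotype and bait across cycling, DMSO, L67 and L82-G17. WT hybrid shares stay near 0.198% with the CE bait, whereas Ku70-/- DMSO libraries sit between 21.6 and 41.4%.

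Over all 48 libraries the mean share was highest at Igkv3-12 (2.28%), Igkv3-10 (2.10%) and Igkv8-21 (2.09%), followed by Igkv6-17 (1.82%), Igkv8-24 (1.04%) and Igkv6-25 (0.906%). Those 6 genes, each a Vκ segment that can form a light chain V exon with a Jκ, held 81.7% of the region's site junctions. Site 70190420, which has no annotated gene, came next with 0.902%. The first 3 means differ by less than the range each covers across groups, so their order is a description of the average and not of any group.

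Igkv3-12 (ENSMUSG00000076595.1, 70468244 to 70468843, DEL) took 2.72, 3.10 and 3.07% in WT DMSO libraries of the CE bait and 2.22, 2.42 and 2.33% with the SE bait. In cycling WT libraries it took 4.19, 3.81 and 3.94% with the CE bait and 1.24, 0.178 and 0.784% with the SE bait. The cycling libraries were thus all above DMSO on the coding side and all below it on the signal side. The cycling values of the SE bait rest on 2, 3 and 5 distinct junctions. Igkv3-12 was called in neither comparison by the test across sites given below, where most sites showed no overlap with either bait. Igkv3-10 (ENSMUSG00000076596.2, 70522627 to 70523224, DEL) took 1.84, 1.81 and 1.85% with the CE bait and 2.97, 2.97 and 2.89% with the SE bait in WT DMSO. In cycling WT libraries of the CE bait it was at 3.65, 3.24 and 3.52%. Both Igkv3 genes have the same RSS, yet Igkv3-12 was the higher of the pair with the CE bait and Igkv3-10 with the SE bait in every WT DMSO library.

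Igkv8-21 (ENSMUSG00000076586.1, 70264889 to 70265446, INV) took 2.17, 2.14 and 2.02% in WT DMSO with the CE bait and 1.02, 1.21 and 1.27% with the SE bait. Igkv6-17 (ENSMUSG00000076590.2, 70321463 to 70321987, DEL) went the other way, with 1.98, 2.02 and 2.12% against 3.36, 3.46 and 3.27%. Igkv8-24 (ENSMUSG00000076583.1, 70166852 to 70167415, INV) took 2.14, 2.32 and 2.27% against 1.47, 1.49 and 1.36%. Its neighbour Igkv6-25 (ENSMUSG00000076582.1, 70165427 to 70165951, DEL) took 1.15, 1.16 and 1.21% against 1.11, 1.23 and 1.14%, which overlap between baits. The CE and SE bait values of the other 3 genes do not overlap.

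**Figure D2:**
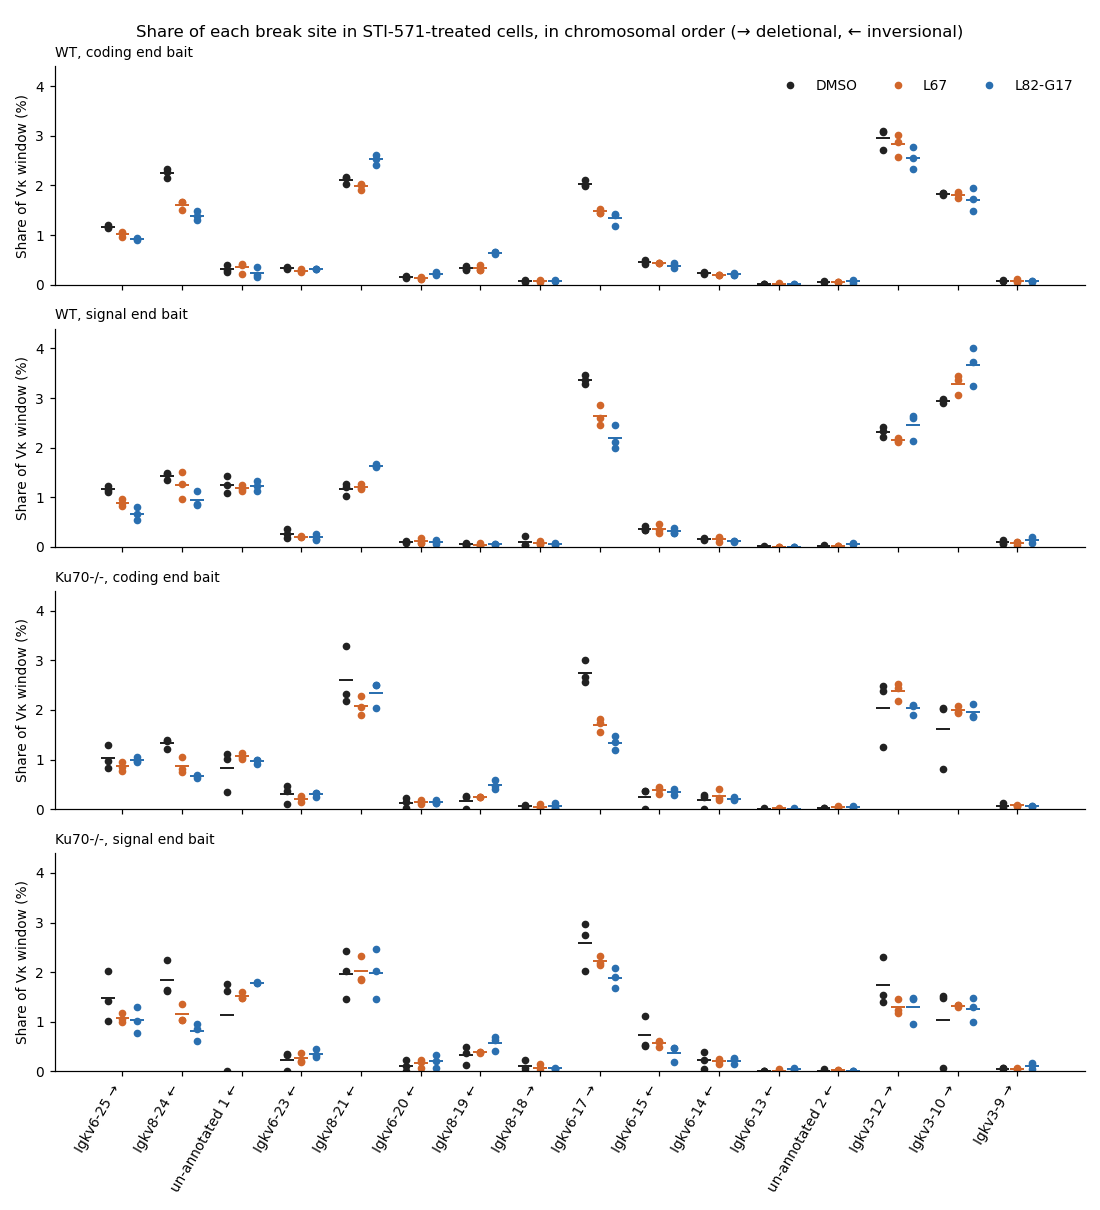
Share of Vκ window junctions in percent at 16 sites of the region, in order along the chromosome, for STI-571-treated libraries in 4 panels of genotype and bait, with a point per library and a line at each group mean. Un-annotated 1 and 2 are sites 70190420 and 70443357. In WT Igkv6-17 stands at 3.27 to 3.46% with the SE bait under DMSO and at 1.99 to 2.85% under the inhibitors.

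The next comparisons ask which sites changed with arrest, inhibitor or genotype. Site shares were tested with limma on log2 of junctions per 1000 window junctions, with 1 junction added, across all sites with at least 50 junctions on average, so a fold change understates the change of low sites. Counts at an unadjusted p are given for the region only and are not set against all sites. With the CE bait, arrest in WT cells went with a higher share at Igkv8-24 and lower shares at Igkv3-10 and site 70443357. Of 15 region sites tested, 4 were called at an adjusted p under 0.05, against 32.7% of all 110 sites (18.2% higher, 14.5% lower), and 7 had an unadjusted p under 0.05. The libraries did not overlap at 10 of the 15, against 61.8% of all. Igkv8-24 rose from 0.643, 0.359 and 0.364% in cycling to 2.14, 2.32 and 2.27% in DMSO libraries, a log2 change of 2.34 (SE 0.27, adjusted p = 0.00581). Igkv8-19, an INV gene, was also called higher, from 0.203, 0.0953 and 0.112% to 0.307, 0.386 and 0.328%, but on 100 cycling junctions in all, so that it passed the filter on low values only through DMSO and no p is given. Igkv3-10 fell (log2 change -0.92, adjusted p = 0.00977), and site 70443357 fell from 0.317, 0.377 and 0.533% to 0.0751, 0.0527 and 0.0598% (log2 change -2.70, adjusted p = 0.00296). The call of Igkv8-19 was lost without any 1 of the 3 WT DMSO libraries or without cycling replicate 2 or 3, and that of Igkv3-10 without any 1 of the DMSO libraries, which left 2 calls without any 1 DMSO library. The median log2 change was 0.51 over the region sites and 0.50 over all sites tested. Both medians include Igkv8-19, which passed only through DMSO, and they do not measure the region share.

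Seen from the SE bait, arrest in WT cells called 6 of 15 region sites against 50.9% of all 110 sites (32.7% higher, 18.2% lower), and 8 had an unadjusted p under 0.05. The libraries did not overlap at 11 of the 15, against 67.3% of all. Igkv6-17 rose from 1.13, 0.762 and 0.914% to 3.36, 3.46 and 3.27% (log2 change 1.86, adjusted p = 0.00365). Igkv8-21 fell from 3.22, 3.92 and 3.21% to 1.02, 1.21 and 1.27% (log2 change -1.57, adjusted p = 0.00394), and Igkv6-14, a low INV gene, fell too (log2 change -1.18, adjusted p = 0.0107). Igkv3-9 and site 70539447 had 0 junctions among 61387 window junctions of the 3 cycling libraries, against means of 0.0924% and 0.0338% in DMSO. Both are among the 6 calls, but they passed the filter on low values only through the DMSO libraries, so that neither a p nor a fold is given. The same holds for Igkv6-25, at 0.0799, 0.145 and 0.279% in cycling (101 junctions in all) and 1.11, 1.23 and 1.14% in DMSO libraries. With WT cycling replicate 1 or 2 left out, 10 region sites were called, a count that has no share over all sites beside it. Cycling WT libraries of the SE bait held only 26 to 38 distinct region junctions. With each distinct junction counted once the log2 difference of Igkv6-25 turned to -0.19 and Igkv6-17 lost its call, where intact signal joints of a site count once by construction. The median log2 change was 1.86 over the region sites and 0.92 over all, both with sites that passed the filter only through DMSO. It is not a measure of the region share, which was 1.58 times as high in DMSO as in cycling libraries.

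Under L67 2 region sites fell in WT cells with the CE bait, out of 18 tested, where 5.22% of all 115 sites were called (1.74% higher, 3.48% lower), the libraries did not overlap at 5 region sites (32.2% of all), and 5 region sites had an unadjusted p under 0.05. Igkv8-24 fell from 2.14, 2.32 and 2.27% to 1.66, 1.66 and 1.51% (log2 change -0.48, SE 0.06, adjusted p = 0.0126). Igkv6-17 fell from 1.98, 2.02 and 2.12% to 1.46, 1.45 and 1.53% (log2 change -0.46, SE 0.05, adjusted p = 0.00808). Both calls were lost without WT DMSO replicate 2, the first also without replicate 3, and both with each junction counted once or with all groups of the bait in 1 fit. Under L82-G17 the same bait gave 5 calls among 17 region sites, against 35.7% of all 115 (20.0% higher, 15.7% lower), with 8 unadjusted and 8 without overlap (53.9% of all). Igkv8-24 was at 1.31, 1.49 and 1.38% (log2 change -0.69, SE 0.08, adjusted p = 0.00271), Igkv6-17 at 1.42, 1.41 and 1.19% (-0.61, adjusted p = 0.00626) and Igkv6-25 at 0.915, 0.898 and 0.946% (-0.35, adjusted p = 0.00854), each below its DMSO values. Igkv8-19 rose to 0.653, 0.658 and 0.626% (log2 change 0.93, SE 0.10, adjusted p = 0.00271), and Igkv8-21 to 2.42, 2.62 and 2.54% (0.26, adjusted p = 0.0268). Counted once, 1 of these 5 calls was left, and with all groups of the bait in 1 fit, 0. The call of Igkv8-21 was also lost without any 1 DMSO library or L82-G17 replicate 2 or 3. The median log2 change of the region was -0.08 under L67 and -0.14 under L82-G17, against 0.03 and 0.04 over all sites.

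L67 with the SE bait called 0 of 16 region sites (0% of 114 in all, with no overlap at 5 region sites and 18.4% of all), 3 of them with an unadjusted p under 0.05. Igkv6-17 went from 3.36, 3.46 and 3.27% to 2.46, 2.85 and 2.61%, without overlap (log2 difference -0.35, adjusted p = 0.226). L82-G17 called 2 of 16 (9.73% of 113 in all, 3.54% higher and 6.19% lower), with 6 unadjusted and 8 without overlap (41.6% of all). Igkv6-25 was at 0.549, 0.666 and 0.805% against 1.11, 1.23 and 1.14% in DMSO (log2 change -0.80, adjusted p = 0.0396) and Igkv6-17 at 2.45, 1.99 and 2.12% (-0.63, adjusted p = 0.0353). Both calls were lost when any 1 of the 6 libraries was left out and when each junction was counted once.

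In Ku70-/- cells no inhibitor call was made at any region site. L67 gave 0 of 14 with the CE bait and 0 of 15 with the SE bait (0% of 100 and of 102 sites in all, with 2 and 0 region sites unadjusted). L82-G17 gave 0 of 14 and 0 of 15 (0% of 96 and of 100, with 2 and 1 unadjusted). The absence of a call does not show the absence of a change, since the Ku70-/- DMSO libraries scattered widely. Without DMSO replicate 1, 3 of 14 region sites were called under L82-G17 with the CE bait, where 9.28% of all 97 sites were called (4.12% higher, 5.15% lower): Igkv8-24 (1.39 and 1.37% in DMSO, 0.680, 0.635 and 0.677% under L82-G17, log2 change -1.06, adjusted p = 0.00983), Igkv6-17 (2.66 and 2.56% against 1.36, 1.48 and 1.19%, -0.97, adjusted p = 0.0161) and Igkv8-19 (0.273 and 0.246% against 0.470, 0.411 and 0.595%, 0.91, adjusted p = 0.0357). With replicate 1, whose Igkv8-24 and Igkv6-17 shares were 1.22 and 3.01%, the first pair had log2 differences of -0.997 and -1.04 (both adjusted p = 0.115). The signs of these 3 were those of WT cells. A test of whether an inhibitor difference itself differed between the genotypes called 0 region sites in each of the 4 interaction fits (0% of 112 sites in each, 0 unadjusted in the region), with the same scatter in it.

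Arrest in Ku70-/- cells called 0 of 13 region sites with the CE bait (1.08% of 93 in all, 4 unadjusted) and 2 of 14 with the SE bait (9.57% of 94, all higher, 4 unadjusted, with no overlap at 5 region sites and 31.9% of all). Igkv8-24 had 5, 1 and 0 junctions in the cycling libraries of the SE bait and shares of 2.24, 1.63 and 1.65% in DMSO, and Igkv6-15 had 1, 0 and 0 junctions and shares of 1.12, 0.540 and 0.516%. Both passed the filter on low values only through the DMSO libraries, so that their calls are counted and no p is given. Without Ku70-/- DMSO replicate 2 or 3, or cycling replicate 3, neither was called. Ku70-/- cycling libraries of that bait held 308 to 523 region junctions, so a site of low share was not detectable there.

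Between genotypes under DMSO, 0 of 15 region sites were called with the CE bait (7.14% of 112 in all, 2.68% higher and 4.46% lower, 2 unadjusted) and 0 of 17 with the SE bait (11.5% of 113, 5.31% higher and 6.19% lower, 2 unadjusted). Without Ku70-/- DMSO replicate 1, 4 of 16 were called with the CE bait, a lower share than that of all 113 sites (40.7%, with 16.8% higher and 23.9% lower). Site 70190420 was at 1.11 and 1.01% against 0.399, 0.306 and 0.263% in WT (log2 change 1.74, adjusted p = 0.00321), and Igkv6-17 at 2.66 and 2.56% (0.36, adjusted p = 0.0179), both higher. At site 70190420 coding preys made up 25.6 and 18.5% of the joints, against 98.8, 98.96 and 99.2% in WT. The rise of that site thus lay in signal preys, which form hybrid joints with the CE bait. The coding flank of site 70190420 has an exact copy elsewhere, so the share of that end is uncertain. Igkv8-24 was lower (-0.70, adjusted p = 0.00309), and site 70443357 is the fourth call, but it passed the filter on low values only through WT, so that no p is given. The Ku70-/- DMSO replicate 1 left out here had 333 junctions at site 70190420 among 96095 of the window, a share within the WT range. At Igkv6-17 and Igkv8-24 it lay on the same side of WT as the other 2 libraries. From the SE bait 6 of 16 were called without that library, again a lower share than that of all 112 sites (53.6%, with 26.8% in each direction). Igkv8-19 was at 0.363 and 0.487% against 0.0363, 0.0417 and 0.0897% (log2 change 3.03, adjusted p = 0.00431), and Igkv6-14 (1.01), Igkv8-21 (0.93) and Igkv6-15 (0.53) were higher too (adjusted p = 0.0275, 0.0124 and 0.0455). At Igkv8-19 coding preys made up 93.0 and 89.6% of the joints, against 8.06, 0 and 26.2% in WT. Its rise thus lay in coding preys, which form hybrid joints with the SE bait. The signal flank of Igkv8-19 has an exact copy elsewhere, so the share of that end is uncertain. Igkv3-10 (-0.97, adjusted p = 0.00404) and Igkv3-12 (-0.66, adjusted p = 0.0168) were lower. With the SE bait replicate 1 went with these calls at Igkv8-19, Igkv8-21, Igkv6-15 and Igkv3-10. It lay within the WT range at Igkv3-12 and below that range at Igkv6-14, against both calls.

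Site 70190420 and Igkv8-19 had the lowest and the highest ratio of CE to SE bait share in WT DMSO among the 15 sites compared. Site 70190420 took 1.08, 1.26 and 1.44% with the SE bait in WT DMSO and 0.323% ± 0.0695 with the CE bait, an SE to CE ratio of 3.90. Its coding flank matched that of Igkv8-16 exactly over 275 bases, and a run of its 100 coding bases occurs at 2 places on chromosome 6. Igkv8-16 itself took 0.497% with the CE bait and 3.24% with the SE bait. Igkv8-19 took 0.340% with the CE bait and 0.0559% with the SE bait, a CE to SE ratio of 6.09, the latter on 1 to 5 distinct junctions per library. There the signal flank was the one with a copy, an exact match of 105 bases to Igkv8-28, which took 0.257% and 0.0226%. In both cases the lower share was that of the repeated flank. How much of the bait difference the likeness of the flanks accounts for was not tested, and the share of those ends is uncertain.

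**Figure D3:**
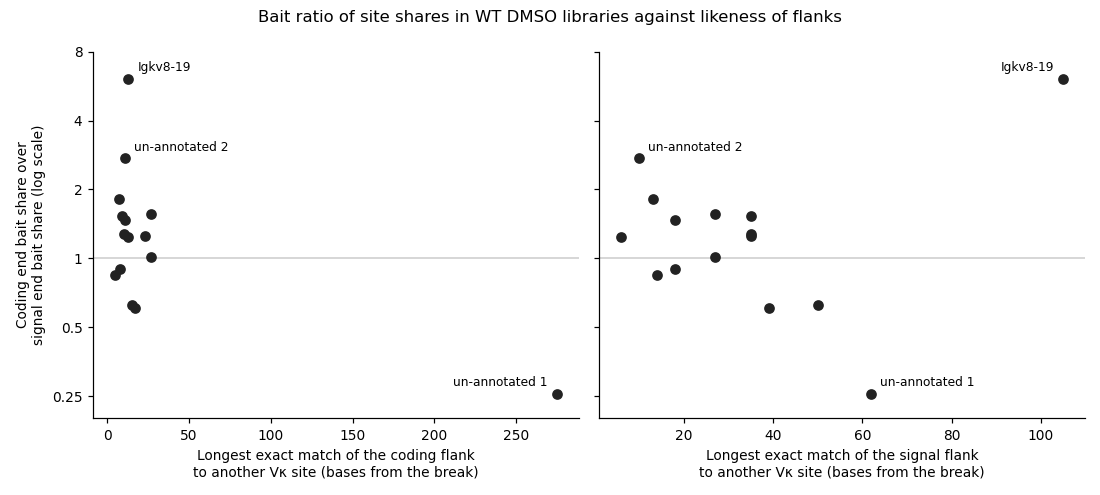
Ratio of the WT DMSO mean share with the CE bait to that with the SE bait (log axis) against the longest exact match of the coding or signal flank to another site, in bases, for 15 sites. Site 70190420 (un-annotated 1 in the plot; un-annotated 2 is site 70443357), with a coding match of 275 bases, has the lowest ratio, and Igkv8-19, with a signal match of 105 bases, a ratio of 6.09.

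Of the 11 sites without an annotated gene, site 70190420 lies between Igkv8-24 and Igkv6-23, where RefSeq (GRCm38.p6) lists the V segment Igkv8-23-1. Site 70443357 lies between Igkv6-13 and Igkv3-12, where RefSeq lists the pseudogene Igkv3-12-1. The pseudogenes Igkv8-22, Igkv3-11 and Igkv3-8 lie likewise between the neighbours of other such sites. The builds differ, so the match was made by neighbouring genes only and was not tested by sequence. Apart from site 70190420 these sites were rare, with mean shares of 0.0620% at site 70443357, 0.0256% at site 70539447 and 0.0246% at site 70545798. Site 70528244 rested on 43 copies of 1 distinct junction.

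Hybrid joints were rare over the region in WT cells and frequent in Ku70-/- cells. In WT DMSO libraries 0.198% ± 0.0391 of the site junctions of the CE bait had a signal end as prey, and 1.29% ± 0.243 of those of the SE bait had a coding end. In Ku70-/- DMSO the hybrid share was 21.6, 24.6 and 26.9% with the CE bait and 36.4, 40.4 and 41.4% with the SE bait. Under L67 it was 29.3, 24.6 and 32.3% with the CE bait, overlapping DMSO at the lower end, and 47.0, 50.2 and 43.6% with the SE bait, all above DMSO. Under L82-G17 it was 19.02, 20.7 and 20.0% with the CE bait, all below DMSO, and 36.1, 30.8 and 39.3% with the SE bait, which overlap. The comparisons without overlap reached the exact permutation p = 0.1, the smallest possible (adjusted p = 0.28 over 14 comparisons). Replicate 1 was the lowest DMSO library with both baits and was still above all L82-G17 libraries of the CE bait.

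In 8 of the 9 treated Ku70-/- libraries of the CE bait and 9 of 9 of the SE bait the hybrid share was higher at INV than at DEL sites. At INV sites of Ku70-/- cells the hybrid share was 31.0, 38.2 and 30.04% on average in DMSO, L67 and L82-G17 with the CE bait, and at DEL sites 19.4, 21.5 and 11.3%. DMSO replicate 1 went the other way with this bait, with 19.4% at INV and 23.4% at DEL sites, whereas replicates 2 and 3 had 32.3 and 41.4% at INV and 18.6 and 16.2% at DEL sites. It was, with the SE bait, 52.9 (49.2 to 55.3 over libraries), 57.3 and 47.0% at INV sites and 27.1 (21.3 to 30.8), 36.1 and 22.1% at DEL sites. In each treated group of the SE bait the lowest INV library lay above the highest DEL library. The 3 cycling Ku70-/- libraries of the SE bait went the other way, with 12.4, 14.8 and 40.3% at INV and 79.4, 45.2 and 47.7% at DEL sites, on 105 to 241 junctions for each orientation. Site 70190420 carried much of the INV value with the CE bait, where the INV hybrid share without it was 23.4, 30.8 and 22.8% on average in the 3 treatments, and 13.4% in DMSO replicate 1. Leaving it out raised the value with the SE bait, to 59.7, 65.7 and 55.2%.

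Single sites varied within each orientation. In the 9 treated Ku70-/- libraries of the CE bait, coding preys made up 82.5 to 95.5% of the joints at Igkv3-12 and 77.6 to 92.2% at Igkv3-10, both DEL. At Igkv8-21, INV, they made up 63.0 to 83.2%, a range that overlaps both. The overlap with Igkv3-12 rested on DMSO replicate 1, without which Igkv8-21 reached 81.7% at most. In each library Igkv8-21 was below Igkv3-12. At site 70190420 they made up 0 to 45.1%, and at the same site 15.9 to 39.3% with the SE bait, where the middle library (27.1%) was the lowest of the INV sites plotted. Igkv8-19 had 71.8 to 100% coding preys with the SE bait. Since the coding flank of site 70190420 and the signal flank of Igkv8-19 have exact copies elsewhere, the end kinds of both are uncertain. Igkv6-17, DEL, had 9.48 to 44.5% coding preys with the SE bait, and Igkv8-24, INV, 7.95 to 75.4%, whose lowest value came from DMSO replicate 1. In WT cells the range over the 9 treated libraries was 99.1 to 100% with the CE bait at the 6 leading genes, and 0 to 4.62% with the SE bait. Igkv8-19 was higher in those WT libraries of the SE bait, at 0 to 97.3% (middle library 36.6%), on 1 to 10 distinct junctions each.

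**Figure D4:**
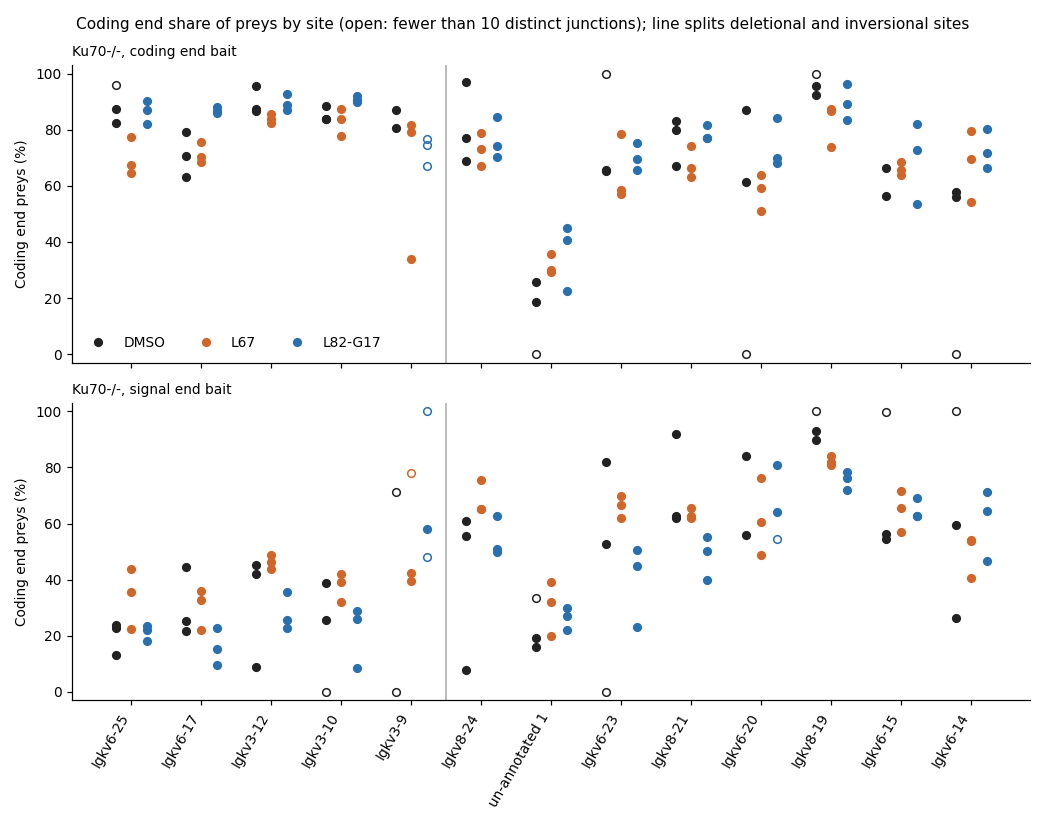
Coding end share of the preys in percent at 13 sites of the region in STI-571-treated Ku70-/- libraries, by bait, with deletional sites to one side of the dividing line and inversional sites to the other. Open points are libraries with fewer than 10 distinct junctions at the site. With the CE bait Igkv3-12 stays between 82.5 and 95.5%, and site 70190420 (un-annotated 1) at or below 45.1%.

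Trimming separated the genotypes over the region as a whole. In WT DMSO libraries of the CE bait the coding preys had lost a median of 3 bases and 5 at the 90th percentile, and 17.2% ± 1.07 had lost none. For the SE bait 98.4% ± 0.222 of the signal preys were intact to the base. The sites were placed on the signal end peak of treated WT libraries of that bait, which favours a high intact share there. In Ku70-/- DMSO the coding preys of the CE bait had lost a median of 10 to 12 bases over the libraries, and 0.475% were intact. Under L67 the median was 10 to 12 again and under L82-G17 15 to 17, without overlap with DMSO. Signal preys of the SE bait had lost a median of 6 to 15 bases in DMSO, 6 to 7 under L67 and 10 to 11 under L82-G17, with 10.6, 8.85 and 8.14% intact. The highest of the DMSO medians was that of replicate 1. Bases that bait and prey share were counted to the prey.

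The share of junctions within 10 bp of the break, of those within 100 bp, gave the same picture. It was 97.1, 97.9 and 97.6% in WT DMSO with the CE bait and 99.5 to 99.6% with the SE bait. In Ku70-/- DMSO it was 51.3, 52.6 and 49.3% with the CE bait, 50.3, 52.2 and 49.0% under L67, and 39.2, 43.4 and 40.4% under L82-G17, the only treatment below all DMSO libraries (difference -10.1 percentage points, exact permutation p = 0.1, adjusted p = 0.233). The SE bait DMSO libraries were at 30.6, 58.9 and 58.0%, where replicate 1 was the low one, L67 at 51.0, 55.1 and 53.5%, and L82-G17 at 44.7, 46.6 and 42.0%. Without replicate 1 both inhibitor groups lay below DMSO, and with it both overlapped.

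Sites differed in how far they were trimmed under the same treatment. In Ku70-/- libraries of the CE bait under L67, 64.8% of the Igkv3-12 joints (62.4 to 67.2 over libraries) and 59.3% of the Igkv3-10 joints (54.3 to 62.6) lay within 10 bp. Igkv8-21 (39.6%, 38.3 to 40.3) and Igkv6-17 (41.5%, 39.7 to 43.0) lay below both in every library. Under L82-G17 Igkv3-12 was at 55.8% (50.7 to 59.1) and Igkv8-21 at 28.4% (27.1 to 30.8), again without overlap. The median loss of the coding preys under L67 was 8 bases at Igkv3-12 and 7 at Igkv3-10, against 16 at Igkv8-21 and at Igkv6-17. These are descriptions of sites within the same libraries, and no test was made between sites.

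**Figure D5:**
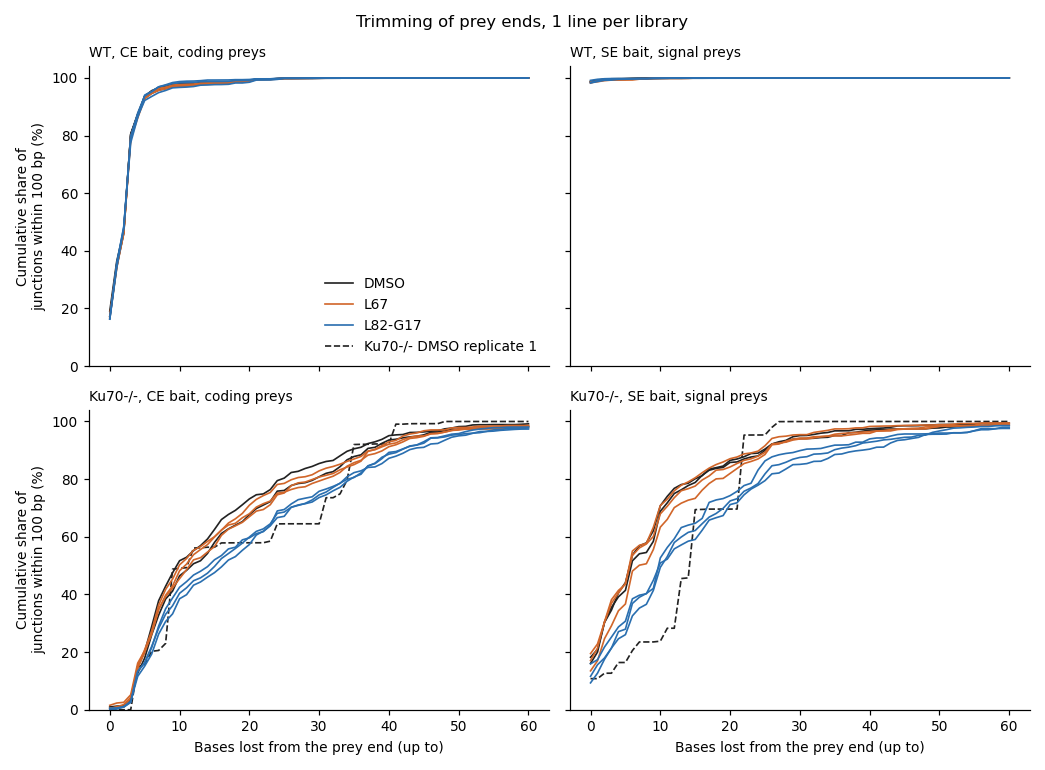
Cumulative share of preys in percent by bases lost from the break, 1 line per STI-571-treated library, for coding preys of the CE bait and signal preys of the SE bait in each genotype. WT lines reach their plateau within 10 bases, the Ku70-/- lines climb slowly, and Ku70-/- DMSO replicate 1 is dashed.

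The next values are those of single positions. The sites were placed on the peak of the signal end junctions of treated WT libraries of the SE bait, so that their pileup on the first signal base is set by the rule. In DMSO that base took 3.30% ± 0.115 of the window at Igkv6-17 (70321988), 2.90% ± 0.0363 at Igkv3-10 (70523225) and 2.27% ± 0.0593 at Igkv3-12 (70468844). With the CE bait the site junctions spread over several coding bases, and the highest position had lost 3 bases at each of the leading 4. It took 0.957% ± 0.0817 at Igkv3-12 (70468840), 0.850% ± 0.0765 at Igkv8-24 (70166855), 0.789% ± 0.00342 at Igkv6-17 (70321984) and 0.784% at Igkv3-10 (70523221). Under L67 the Igkv8-24 and Igkv6-17 positions were at 0.567 and 0.546%, with every library below DMSO, and Igkv3-12 was at 0.949%. Under L82-G17 the third position was instead Igkv8-21 with 1 base lost (70264890), at 0.677% ± 0.0497.

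In Ku70-/- libraries the junctions used more positions at lower shares. With the SE bait WT DMSO libraries used 223 positions of the region in all and Ku70-/- DMSO libraries 998, on fewer junctions. With the CE bait the numbers were 387 and 998. The highest position under L67 with the CE bait was Igkv3-12 with 7 bases lost (70468836), at 0.422% ± 0.0197, and it was the highest again under L82-G17, at 0.346% ± 0.0162. From the signal side the highest was Igkv6-17 with 6 signal bases lost (70321994) under L67, at 0.195%, and its intact signal base under L82-G17, at 0.184%. The highest positions of Ku70-/- DMSO rested on replicate 1, as at Igkv6-17 with 9 bases lost (70321978), where 1 library had 1.74% and another 0.104%, and they are not read further. Counts of positions depend on the number of distinct junctions, which differed between libraries.

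Joint structure was read from the overlap or gap between bait and prey on the read, as MH of 2 bp or more, overlap of 1 bp, direct joints, or insertions. In WT DMSO with the CE bait 69.8% ± 0.762 were direct joints, 16.5% ± 0.312 carried an insertion and 0.408% ± 0.0261 had MH. Signal joints of the SE bait were direct at 97.0% ± 0.281, with insertions at 1.72% ± 0.205. Under L82-G17 the insertion share of the CE bait fell outside the DMSO range, at 13.9, 13.8 and 13.9% against 16.8, 16.3 and 16.3%, whereas L67 overlapped DMSO at 16.6, 16.2 and 16.5%. The L82-G17 difference was -2.56 percentage points (exact permutation p = 0.1, the smallest possible, adjusted p = 0.28). In Ku70-/- DMSO with the CE bait direct joints made up 52.9% ± 0.555, MH 16.7, 17.1 and 16.8%, and insertions 0.693, 2.58 and 3.09%. Under L82-G17 MH was at 19.9, 19.8 and 20.0%, above all DMSO libraries, and under L67 at 16.95, 14.2 and 18.6%. Cycling Ku70-/- libraries had MH in 38.1, 49.0 and 29.0% of the joints, on 99 to 126 distinct junctions each. With the SE bait Ku70-/- MH was at 26.3, 17.5 and 16.5% in DMSO, 17.8, 19.8 and 19.5% under L67 and 18.2, 26.2 and 19.9% under L82-G17, which overlap.

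Single sites varied around these values. In WT DMSO with the CE bait insertions were in 11.4% (10.4 to 12.3) of the Igkv8-21 joints and 18.4% (17.4 to 19.8) of the Igkv6-17 joints. Igkv6-15, the gene with the CACAGTA heptamer, was named after its values were seen: 35.3% (32.0 to 38.4) of its joints had an insertion and 42.5% were direct. With that bait the MH share in Ku70-/- DMSO replicates 2 and 3 was 16.6 and 18.1% at Igkv3-12 and 19.3 and 17.4% at Igkv3-10, and in replicate 1 86.1 and 73.9%. Under L67 it was 16.3 to 19.4% and 14.3 to 15.3%.

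Compared with the other sites of the Vκ window in the same libraries, the region differed in some of these measures. Over the 9 treated libraries of a genotype and bait, with 16 exact sign-flip permutation tests, the MH share of WT joints with the CE bait was 0.512% in the region and 2.77% in the rest, lower in 9 of 9 libraries (difference -2.26, p = 0.00391, the smallest possible, adjusted p = 0.0156). The insertion share there was 15.6% against 14.1%, higher in 9 of 9 (adjusted p = 0.0156), although it no longer passed with each junction counted once. The share within 10 bp was 0.483 percentage points lower in 9 of 9 WT libraries of that bait (adjusted p = 0.0156). In Ku70-/- libraries the hybrid share was lower than in the rest, at 24.3% against 32.3% with the CE bait in 9 of 9 libraries (adjusted p = 0.0156) and at 40.6% against 46.2% with the SE bait in 8 of 9 (adjusted p = 0.0312). These differences ran from -21.0 to -2.79 and from -12.8 to 1.25 percentage points over libraries. Their means were -8.00 and -5.66, and -12.6 and -9.58 in the DMSO libraries alone, which include replicate 1. The Ku70-/- share within 10 bp with the CE bait was 47.5% against 42.3%, higher in 8 of 9 (adjusted p = 0.025), but against the other sTAD5 sites alone the difference turned to -2.30. The other 10 tests did not pass. The 9 libraries span 3 treatments and were taken as equal, and in DMSO libraries alone the 6 differences kept their signs.

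Junctions over 200 bp from every site were rare in WT cells, with 334 in all, of 75 distinct kinds, and more frequent in Ku70-/- cells, with 5731 of 629 kinds. Since sites were placed only from treated WT libraries of the SE bait, signal end pileups there could become sites. A pileup found only in Ku70-/- cells could not, so the contrast is partly set by the rule. Junctions over 200 bp from every site made up 7.47 to 31.2% of the region junctions in Ku70-/- cycling libraries and 0 to 2.86% in Ku70-/- treated ones. In Ku70-/- cells 38 positions held 30 or more of these junctions, 17 of them in 3 or more libraries and 1 with both baits, and the next bases read CAC at 2 of them. Position 70522154, which lies 1071 bp from the Igkv3-10 break, and 70467845, 999 bp from the Igkv3-12 break, were each found in 11 of the 12 Ku70-/- libraries of the CE bait. Position 70321774, 214 bp from the Igkv6-17 break, was found in 9. All 3 were absent from DMSO replicate 1, and lay on the coding side with a coding end as prey. Each rested on 1 to 3 distinct junctions in a library that held it, and their highest shares, 1.08, 0.534 and 0.844%, were 75, 42 and 76 copies of 1 distinct junction in a cycling library.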

How the data were processed

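Junctions of 48 HTGTS-JoinT-seq libraries were analysed, 24 per genotype, in 16 groups of 3. Per the labels and methods, the authors took 500000 read pairs per library, mapped them to mm9 with Bowtie2 inside a translocation pipeline that kept copies, and deposited 1 line per junction. The deposited values are other than levels: genome positions, strands and positions on the read, from which junctions were counted here. The version of Bowtie2 is not given in the sources used here.

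Break sites needed 30 signal end junctions in the pooled treated WT SE bait libraries, no higher position within 50 bp and a CAC within 1 base. A junction belonged to the nearest site within 200 bp, and its end kind followed the prey strand. Joint structure used overlaps or gaps of at most 20 bp. Group differences in shares were judged with two-sided permutation tests that enumerate all splits (exact), and site usage with limma 3.58.1 (R 4.3.3) on sites with 50 junctions on average, with Benjamini-Hochberg adjustment at 0.05. Counting used Python 3.11.15, numpy 2.4.6, pandas 2.3.3 and scipy 1.17.1. Calculations across sites were tested on simulated data, where fewer changes were recovered with the scatter of the Ku70-/- DMSO libraries than with that of WT. Named sites are the 6 with the highest mean share, the largest rise and fall past the threshold per comparison, and the leading sites without an annotated gene. Others were named after their values were seen, as were the members and lists, which were chosen with earlier results of these data known. Alternatives covered counting, denominators, windows, site placement, model settings and leaving out each library. Sequences are from the mm9 genome, gene names from GENCODE vM1. Intervals of counts were not used, since copies are not independent molecules.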

Additional observations from a re-analysis of the deposited data

Results flagged for a closer look

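In 2 results of the SE bait every library comparison of arrest with cycling went one way in WT and the other way in Ku70-/- cells. The difference between the genotypes was not tested in either. With arrest the insertion share differed by 0.507 percentage points in WT libraries and by -1.90 percentage points in Ku70-/- libraries, which turned to 13.7 with each junction counted once. Igkv8-21 differed by -1.57 on the log2 scale in WT and by 0.88 in Ku70-/- libraries. The Ku70-/- cycling libraries held only 38, 33 and 60 junctions at Igkv8-21, on 10, 4 and 9 distinct ones. There it passed the filter on low values only through the DMSO libraries, so the size of the 0.88 is not read. Cycling libraries of this bait held 26 to 62 distinct region junctions each.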

How the results depend on the processing

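No paired analysis was possible because the labels carry no replicate numbers and name no shared culture, so no block could be fitted. The replicate numbers used here give only the order in which the samples are listed. No read was mapped again, and the depth of cycling libraries (down to 308 region junctions) limits every comparison with them. In brackets, arrest means DMSO minus cycling, L67 and L82-G17 mean inhibitor minus DMSO, and CE or SE is the bait. The cause of a change was not tested unless stated. Differences in shares are in percentage points. None of the differences between groups of 3 libraries could pass the threshold, and the ones below changed direction. With each distinct junction counted once per library, the region share turned to 1.04 (arrest WT CE) and 2.04 (Ku70-/- minus WT SE). There the hybrid share turned to -0.0220 (L82-G17 WT CE), 6.50 (arrest WT SE), -0.265 (L67 WT SE) and 2.01 (arrest Ku70-/- SE). There the share within 10 bp turned to 0.887 (L67 WT CE), -4.08 (arrest Ku70-/- CE), -0.888 (L67 WT SE) and -0.393 (L67 Ku70-/- SE). There the microhomology share turned to -0.120 (arrest WT CE), 4.25 (arrest WT SE) and -0.641 (L67 WT SE). There the insertion share turned to 4.53 (arrest Ku70-/- CE), -5.76 (L67 Ku70-/- CE), -5.12 (L82-G17 Ku70-/- CE), -2.89 (L67 WT SE), -0.845 (L82-G17 WT SE), 13.7 (arrest Ku70-/- SE), -10.1 (L67 Ku70-/- SE) and -11.1 (L82-G17 Ku70-/- SE). Per read pair, the region share turned to 9.42 (arrest WT CE), 2.69 (arrest Ku70-/- CE) and 0.230 (L67 Ku70-/- CE). As a share of all junctions of the library, the region share turned to 0.0835 (arrest Ku70-/- CE). With only junctions within 200 bp of a site, the region share turned to 0.517 (arrest Ku70-/- CE). With end kind taken from the side of the break, the hybrid share turned to -0.277 (arrest WT CE), -0.0530 (L67 WT CE), -0.101 (L82-G17 WT CE), 0.0701 (arrest WT SE) and -0.198 (L82-G17 WT SE). With a window of 5 bp, the share within 10 bp turned to -0.0980 (L82-G17 WT CE), 3.59 (L67 Ku70-/- CE), 0.307 (arrest WT SE), -0.160 (L67 WT SE) and -0.0157 (L67 Ku70-/- SE). With a window of 20 bp, the share within 10 bp turned to 0.764 (L67 Ku70-/- CE), -0.0300 (L82-G17 WT SE), 1.16 (arrest Ku70-/- SE) and -0.129 (L67 Ku70-/- SE). With overlaps of 1 bp included, the microhomology share turned to -0.526 (arrest WT CE), 0.00886 (L67 Ku70-/- CE), -0.108 (L82-G17 WT SE) and 4.23 (L67 Ku70-/- SE). Without a limit on the gap, the insertion share turned to 0.0170 (L67 WT CE).

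The measures of the region minus those of the rest of the window, over the 9 STI-571-treated libraries of a genotype and bait, moved as follows. With each distinct junction counted once per library, it passed the threshold for the hybrid share in WT CE (-0.288), the share within 10 bp in WT SE (-0.751) and the microhomology share in Ku70-/- SE (-1.35). In that setting, the difference turned for the hybrid share in WT SE (0.210), the microhomology share in WT SE (0.508), the microhomology share in Ku70-/- CE (1.22), the insertion share in WT SE (0.545) and the insertion share in Ku70-/- CE (0.641). In that setting, it no longer passed for the insertion share in WT CE (0.844). Against the other sTAD5 sites, it passed the threshold for the hybrid share in WT CE (-0.124) and the microhomology share in WT SE (-0.184). In that setting, the difference turned for the hybrid share in WT SE (0.265), the share within 10 bp in WT SE (0.153), the share within 10 bp in Ku70-/- CE (-2.30), the share within 10 bp in Ku70-/- SE (-1.75), the microhomology share in Ku70-/- SE (1.47), the insertion share in Ku70-/- CE (0.241) and the insertion share in Ku70-/- SE (0.0851). In DMSO libraries alone, it moved for the share within 10 bp in WT SE (-0.153). In that setting, the difference turned for the share within 10 bp in Ku70-/- SE (-4.38), the microhomology share in Ku70-/- CE (1.93) and the insertion share in Ku70-/- CE (0.0879).

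Of the sites tested in the fit across all sites, the number called in the region changed by more than 1.5 times under several settings. Shares over all sites were not computed for these settings, so the counts are not read against all sites. With each distinct junction counted once per library, the sites called became 0 for L67 WT CE, 1 for L82-G17 WT CE, 2 for arrest Ku70-/- CE, 2 for L82-G17 Ku70-/- CE, 4 for Ku70-/- minus WT CE, 0 for L82-G17 WT SE, 0 for arrest Ku70-/- SE and 6 for Ku70-/- minus WT SE. With all 8 groups of a bait in 1 fit, the sites called became 0 for L67 WT CE, 0 for L82-G17 WT CE, 6 for arrest Ku70-/- CE, 1 for Ku70-/- minus WT CE, 0 for L82-G17 WT SE, 5 for arrest Ku70-/- SE and 2 for Ku70-/- minus WT SE. With a mean-variance trend, the sites called became 1 for L82-G17 Ku70-/- CE, 1 for Ku70-/- minus WT CE, 2 for L67 WT SE and 5 for L82-G17 WT SE. With at least 10 junctions on average, the sites called became 1 for Ku70-/- minus WT CE, 1 for L82-G17 WT SE and 1 for Ku70-/- minus WT SE. With 5 junctions added, the sites called became 0 for arrest Ku70-/- SE and 1 for Ku70-/- minus WT SE. Counted once per library, Igkv6-25 turned to -0.185 on the log2 scale (arrest WT SE), Igkv8-19 turned to -1.64 on the log2 scale (arrest WT SE), Igkv6-17 turned to 0.0274 on the log2 scale (L82-G17 WT SE) and Igkv6-17 turned to 0.604 on the log2 scale (Ku70-/- minus WT SE). Intact signal joints of a site count as 1 distinct junction, which by construction removes most of the SE bait signal in that setting. A 100 bp window and sites placed with 10 times the support or from inhibitor libraries moved none of these counts by more than 1.5 times.

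Leaving out 1 library at a time, these results changed direction or count. Counts of sites called stand without a share over all sites here, except without Ku70-/- DMSO replicate 1. The region share difference ran from -1.60 to 0.422 (Ku70-/- minus WT CE) and -1.75 to 0.0447 (Ku70-/- minus WT SE). The hybrid share difference ran from -0.0956 to 0.0756 (arrest WT CE), -0.0252 to 0.106 (L67 WT CE), -0.0461 to 0.0774 (L82-G17 WT CE), -1.73 to 0.891 (arrest WT SE), -0.178 to 0.269 (L67 WT SE), -0.342 to 0.182 (L82-G17 WT SE) and -7.65 to 1.02 (arrest Ku70-/- SE). The share within 10 bp difference ran from -0.0780 to 0.948 (L82-G17 WT CE), -1.46 to 0.224 (L67 Ku70-/- CE), -8.46 to 6.79 (arrest Ku70-/- SE), -5.28 to 8.88 (L67 Ku70-/- SE) and -14.0 to 0.115 (L82-G17 Ku70-/- SE). The microhomology share difference ran from -0.0422 to 0.0362 (arrest WT CE), -1.26 to 0.907 (L67 Ku70-/- CE), -0.0418 to 0.230 (L67 WT SE), -0.181 to 0.156 (L82-G17 WT SE), -14.0 to 2.84 (arrest Ku70-/- SE), -2.85 to 2.04 (L67 Ku70-/- SE) and -1.05 to 4.42 (L82-G17 Ku70-/- SE). The insertion share difference ran from -0.116 to 0.167 (L67 WT CE), -0.304 to 0.892 (L67 Ku70-/- CE), -0.581 to 0.615 (L82-G17 Ku70-/- CE), -0.0629 to 0.246 (L82-G17 WT SE), -0.253 to 0.411 (L67 Ku70-/- SE) and -0.0438 to 0.730 (L82-G17 Ku70-/- SE). The count of sites called ran from 2 to 6 (arrest WT CE), 0 to 2 (L67 WT CE), 0 to 3 (L82-G17 Ku70-/- CE), 0 to 4 (Ku70-/- minus WT CE), 4 to 10 (arrest WT SE), 0 to 0 (L82-G17 WT SE, since leaving out any 1 library ended both calls), 0 to 3 (arrest Ku70-/- SE) and 0 to 6 (Ku70-/- minus WT SE). Without Ku70-/- DMSO replicate 1 the sites called were 0 for L67 Ku70-/- CE and SE and L82-G17 Ku70-/- SE (0% of all sites), 0 of 13 for arrest Ku70-/- CE (2.17% of all 92) and 2 of 14 for arrest Ku70-/- SE (13.8% of all 94).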
